A study of Homo sapiens with 6 samples.

Results

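Amino acid transporters of the plasma membrane were followed in SH-SY5Y cells through 10 genes fixed by name: SLC7A5, SLC7A8, SLC7A6, SLC3A2, SLC43A1, SLC7A1, SLC1A4, SLC1A5, SLC38A1 and SLC38A2. Every probe set annotated with 1 of these symbols and no other was taken, which gave 24 of the 22215 probe sets tested, for 10 of the 11963 genes that such probe sets name. SH-SY5Y cells derive from a human neuroblastoma and keep features of sympathetic neurons, and no other line was used. The cells received either free bilirubin at Bf 140 nM, the unconjugated bilirubin not bound to albumin, in DMSO as solvent, or DMSO 0.6% alone, both in medium with serum. RNA of separate flasks was taken after 1 h and hybridized to Affymetrix human expression arrays, with 3 biological replicates at Bf 140 nM and 3 in DMSO 0.6%, so the comparison asks whether the transporter mRNAs had already changed at this early time. The deposited values are log2 after variance-stabilizing normalization (VSN), with array medians between 7.73 and 7.97. The base of the logarithm is taken from the method, since the file does not state it, and a difference of 1 is a 2-fold change at bright probe sets and an understated one near background.

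These carriers bring the amino acids that a cell cannot make, or needs in excess, across the plasma membrane, and their supply controls protein synthesis and the mTOR pathway. Some are exchangers made of a light chain, which carries the amino acid, and the glycoprotein SLC3A2 (4F2hc), which brings the light chain to the cell surface. Others work alone, and several of these are driven by the sodium gradient. Transcription of many transporter genes is raised when amino acids run short or when unfolded proteins accumulate in the endoplasmic reticulum, through the factor ATF4 and its C/EBP partners. MYC and MYCN, which drive growth in neuroblastoma, also act on genes of this group.

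Short stretches around start sites are shown because ATF4 and the MYC proteins act through known DNA letters. The sequences are from RefSeq on GRCh38.p14, which has 20 start-site windows for the 10 genes, each from 250 bases before to 50 bases after a start. TGATGNAA, the core of the element bound by C/EBP and ATF factors, was searched on both strands, and so was the E-box CACGTG, which reads the same on both strands. TGATGNAA was present in 5 of the 20 windows, belonging to 5 genes, and in 3.62% of all 35116 windows (4.46% of genes). CACGTG was present in 4 of the 20 windows, belonging to 4 genes, and in 7.26% of all windows (8.77% of genes). These totals are over 27305 genes, so the 10 transporter genes have more windows per gene than the average. Capitals mark the match, and each line runs 5′ to 3′ on the strand of the gene. SLC1A4 (chr2:64989381-64989410, plus strand) and SLC3A2 (chr11:62881725-62881748, plus strand) hold the element as its reverse complement. With 1 as the first base from the start on, the match runs from -7 to 1 in SLC1A4 and from 38 to 45 in SLC3A2. SLC1A5 (chr19:46784893-46784922), SLC38A1 (chr12:46266502-46266531) and SLC7A1 (chr13:29595663-29595692), all on the minus strand, hold it in the direction of the gene. The match runs from -97 to -90 in SLC1A5, from -4 to 4 in SLC38A1 and from 8 to 15 in SLC7A1.
SLC1A4: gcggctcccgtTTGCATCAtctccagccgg
SLC3A2: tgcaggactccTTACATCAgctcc
SLC1A5: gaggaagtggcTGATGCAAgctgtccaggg
SLC38A1: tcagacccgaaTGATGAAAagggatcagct
SLC7A1: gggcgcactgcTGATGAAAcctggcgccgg
The E-box was found on the minus strand for SLC7A5 (chr16:87869621-87869648), SLC7A8 (chr14:23154506-23154533), SLC43A1 (chr11:57515798-57515825) and a second start of SLC1A5 (chr19:46787327-46787354). In that order it lies before the start at -130 to -125, -129 to -124, -112 to -107 and -50 to -45.
SLC7A5: gccggacgacgCACGTGctccgagctgg
SLC7A8: acaattagaaaCACGTGctcagttcctt
SLC43A1: agcgggcgagtCACGTGcgcgtgaaact
SLC1A5: gcgggagtggtCACGTGgacaggacggg
A match is a description of letters and does not show binding. SLC38A2 and SLC7A6 had neither match in their windows, of which each has 1, and sequence outside the windows was not searched.

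The brightness of the 10 genes in DMSO 0.6% cells, each at its brightest probe set, ran between percentiles 42.6 and 95.9, and 9 of the 10 genes lay above the median level. Taking the brightest probe set favours a high position, and the share of all genes so placed was not computed. Positions are percentiles of the group mean among all 22215 probe sets. They depend on how well each probe set binds as well as on the mRNA, so the order is one of signals and not of transcript numbers. SLC7A1 (CAT-1, a carrier of arginine and lysine) stood at percentile 95.96 in Bf 140 nM and 95.94 in DMSO 0.6%. SLC38A2 (SNAT2, a sodium-coupled carrier of small neutral amino acids that is known to be induced by amino acid shortage) stood at 95.01 in Bf 140 nM and 94.93 in DMSO 0.6%. SLC38A1 (SNAT1, a sodium-coupled carrier of glutamine) stood at 91.5 and 90.5, and SLC7A5 (LAT1, the exchanger of leucine and other large neutral amino acids) at 84.0 and 85.5, each in Bf 140 nM and in DMSO 0.6% cells. SLC3A2, SLC7A6 (y+LAT2, an exchanger of cationic for neutral amino acids) and SLC1A5 (ASCT2, an exchanger of glutamine) followed between 75.5 and 78.6 in either group. The lowest signals were those of SLC1A4 (ASCT1, an exchanger of alanine, serine and cysteine) at 67.7 in Bf 140 nM and 69.0 in DMSO 0.6%, SLC7A8 (LAT2, the paralog of LAT1) at 53.3 and 53.5, and SLC43A1 (LAT3, a carrier of large neutral amino acids that needs no heavy chain) at 44.1 and 42.6.

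The order was the same in Bf 140 nM and DMSO 0.6% except that SLC1A5 and SLC7A6 changed places. In DMSO 0.6% the values of neighbouring genes overlapped for SLC7A1 with SLC38A2, for SLC3A2 with SLC7A6, for SLC7A6 with SLC1A5 and for SLC1A5 with SLC1A4. The other neighbours were separate in all 3 arrays. Among the carriers named LAT the signal fell in the order SLC7A5, SLC7A8, SLC43A1. Between the ASCT paralogs SLC1A5 averaged higher than SLC1A4, with overlapping values. A different choice of probe set alters such an order: the 5 probe sets of SLC7A1 lay between percentiles 30.2 and 96.0 of all arrays and the 5 of SLC7A8 between 9.39 and 53.5.

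**Figure D1:**
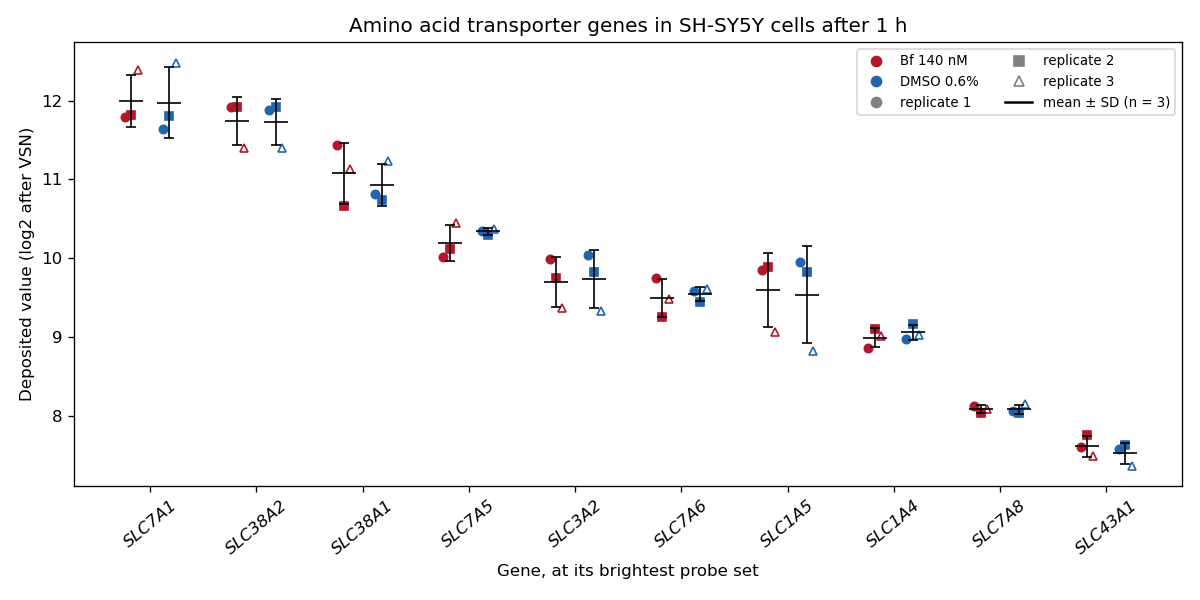
Deposited values (log2 after VSN, vertical axis) of the 10 transporter genes at their brightest probe sets, ordered by the DMSO 0.6% mean, with Bf 140 nM in red to the left of DMSO 0.6% in blue. Symbols give replicates 1 to 3, and bars give the mean ± SD of 3 arrays. The 2 groups overlap for each gene, from SLC7A1 (means 11.99 in Bf 140 nM and 11.97 in DMSO 0.6%) to SLC43A1 (7.61 in Bf 140 nM and 7.52 in DMSO 0.6%), and the replicate 3 triangles lie lowest for SLC38A2, SLC3A2, SLC1A5 and SLC43A1.

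None of the transporter genes had changed detectably after 1 h of Bf 140 nM. Of the 24 probe sets, 0 passed at a Benjamini-Hochberg adjusted p under 0.10 in limma, as for 0% of all probe sets, and the smallest unadjusted p among them was 0.31. An unadjusted p under 0.05 was reached by 0 members and 22 of all probe sets, or 0 members and 270 of all probe sets when the replicate number was a block, and SAM, the test named in the study's methods, called 0 of either as well. The median difference, Bf 140 nM minus DMSO 0.6%, was -0.00 log2 for the members and 0.01 log2 for all probe sets, and 12 were positive and 12 negative, where 58.4% of all probe sets were positive. The Bf 140 nM and DMSO 0.6% values overlapped for each of the 24 probe sets, where 2.65% of all probe sets were separated. In RNA of whole cultures a smaller share of cells with a transcript and less of it per cell cannot be told apart.

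The LAT1 exchanger consists of SLC7A5 and SLC3A2. SLC7A5 was at 10.01, 10.12 and 10.45 log2 in Bf 140 nM replicates 1 to 3, against 10.35, 10.29 and 10.37 in DMSO 0.6%. The Bf 140 nM arrays lay below their DMSO 0.6% partners in replicates 1 and 2 and above in replicate 3, and the groups overlapped because of that array. Its difference of -0.14 log2 (95% confidence interval -0.46 to 0.17) was the lowest of the 24, with an adjusted p of 1.00 from limma and an exact two-sided permutation p of 0.4, where 0.1 is the smallest that 3 arrays against 3 allow. The differences within replicates 1, 2 and 3 were -0.34, -0.17 and 0.08 log2. It was -0.27 log2 without the Bf 140 nM array of replicate 3 and -0.05 log2 without that of replicate 1. SLC3A2 was at 9.98, 9.74 and 9.36 log2 in Bf 140 nM, against 10.04, 9.83 and 9.32 in DMSO 0.6%. Both groups fell from replicate 1 to replicate 3, and the difference of -0.03 log2 had an interval of -0.60 to 0.53. This interval, without the replicate number in the model, did not exclude a 1.5-fold fall. Blocking on the replicate number, the interval of SLC3A2 was -0.21 to 0.15 log2, inside a 1.5-fold change.

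The other light chains that pair with SLC3A2 showed as little. SLC7A8 was at 8.13, 8.03 and 8.09 log2 in Bf 140 nM and at 8.06, 8.03 and 8.14 in DMSO 0.6% on its brightest probe set, whose design suffix (x_at) marks probes that may also match other transcripts. The range of these 6 values was the narrowest of the 10 genes, and the difference was 0.00 log2 (-0.20 to 0.20). Its other probe sets differed by -0.08 to 0.09 log2, and 216604_s_at gave the lowest, through a single high DMSO 0.6% array of replicate 1 at 6.94 beside 6.51 and 6.29. SLC7A6 was at 9.74, 9.25 and 9.48 log2 in Bf 140 nM, against 9.58, 9.44 and 9.61 in DMSO 0.6%, a difference of -0.05 log2 (-0.39 to 0.29). All 3 SLC7A6 probe sets were negative, down to that value. SLC43A1, which works without SLC3A2, was at 7.60, 7.75 and 7.48 log2 in Bf 140 nM and at 7.58, 7.62 and 7.36 in DMSO 0.6%. It was the only gene besides SLC38A2 whose brightest probe set was positive in each replicate, by 0.02, 0.13 and 0.12 log2, and the difference was 0.09 log2 (-0.19 to 0.37).

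SLC7A1 was measured by 5 probe sets, more than any other member but SLC7A8. On the brightest, 212295_s_at, it was at 11.79, 11.81 and 12.38 log2 in Bf 140 nM and at 11.64, 11.80 and 12.48 in DMSO 0.6%, with replicate 3 the highest of both groups. The difference was 0.02 log2 (-0.63 to 0.67). Over its 5 probe sets the differences ran from -0.12 for 206566_at to 0.08 for 212292_at, with 3 positive and 2 negative. Without the block, the interval of 206566_at, -1.10 to 0.86 log2, was the only one of the 24 that reached beyond a 2-fold change. With the block it was -0.31 to 0.08 log2.

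The sodium-dependent exchangers SLC1A5 and SLC1A4 did not differ from DMSO 0.6% within their error. SLC1A5, with 1 probe set, was at 9.85, 9.88 and 9.06 log2 in Bf 140 nM and at 9.95, 9.82 and 8.83 in DMSO 0.6%. Both replicate 3 arrays lay far below the other 4, so that the interval around its difference of 0.06 log2 was wide (-0.82 to 0.94). Blocking on the replicate number gave an interval of -0.13 to 0.26 log2. SLC1A4 on its brightest probe set, 209610_s_at, was at 8.86, 9.10 and 9.01 log2 in Bf 140 nM and at 8.98, 9.17 and 9.02 in DMSO 0.6%. It was lower in each replicate, by -0.12, -0.07 and -0.01 log2, but the groups overlapped and the difference of -0.07 log2 had an interval of -0.32 to 0.18. Of its other probe sets, 2 were negative and 209611_s_at was at 0.03 log2.

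Of the sodium-coupled carriers, SLC38A1 had the highest difference of the 24 probe sets, 0.15 log2 (-0.41 to 0.70). It was at 11.43, 10.66 and 11.13 log2 in Bf 140 nM, against 10.82, 10.73 and 11.23 in DMSO 0.6%. Only replicate 1 was positive, at 0.62 log2, while replicates 2 and 3 gave -0.08 and -0.10 log2, and without the Bf 140 nM array of replicate 1 the difference was -0.03 log2. SLC38A2 was at 11.92, 11.92 and 11.39 log2 in Bf 140 nM and at 11.88, 11.92 and 11.39 in DMSO 0.6%. These values are of 220924_s_at, where the arrays of a replicate agreed within a few hundredths. On 218041_x_at replicates 1, 2 and 3 gave 0.03, -0.09 and -0.02 log2. The differences were 0.01 log2 on 220924_s_at and -0.03 log2 on 218041_x_at, with intervals of -0.49 to 0.52 and -0.48 to 0.42. Blocking on the replicate number, these intervals were -0.16 to 0.19 and -0.21 to 0.15 log2.

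**Figure D2:**
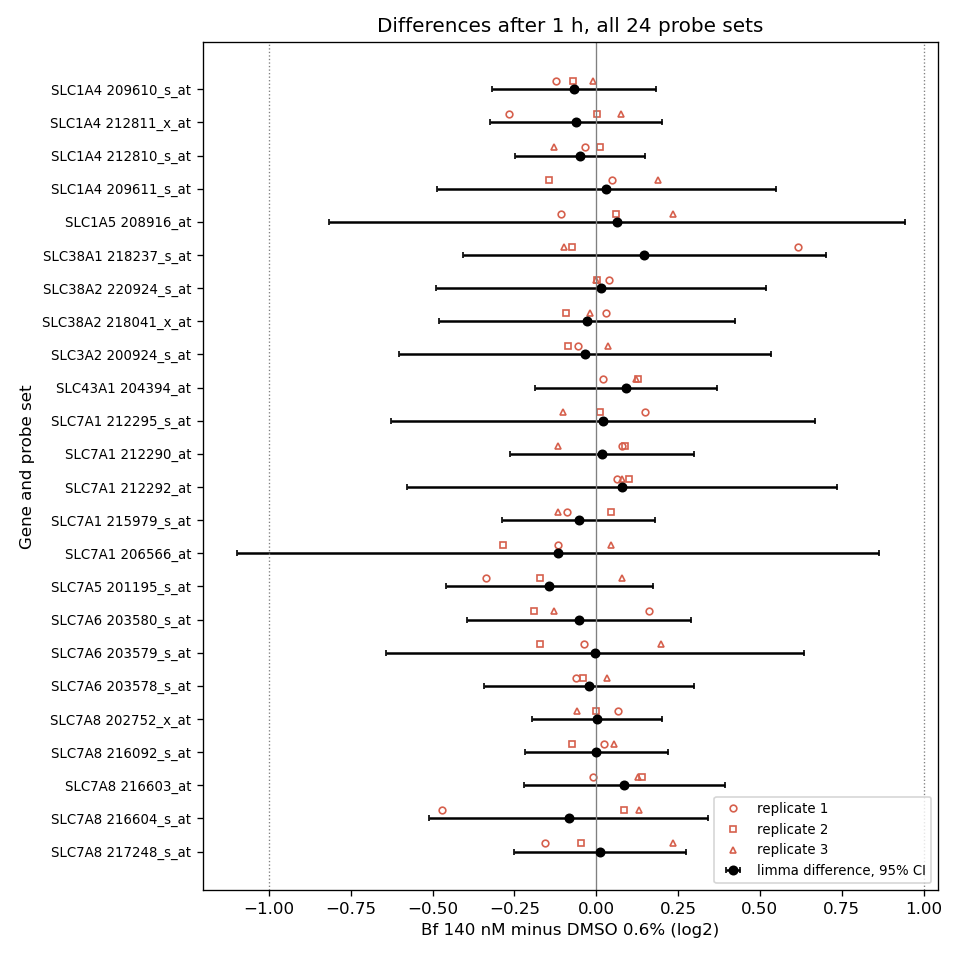
Differences between Bf 140 nM and DMSO 0.6% (log2, horizontal axis) for the 24 transporter probe sets (vertical axis). Filled circles with bars are limma differences with 95% confidence intervals over 3 arrays per group, without a block. Open symbols are the differences within replicates 1 to 3, and dotted lines mark a 2-fold change. The differences lie between -0.14 and 0.15 log2, and the interval of SLC7A1 206566_at alone passes a dotted line.

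The precision limits what these values can exclude. Intervals for which no block is named include the spread among replicate numbers. Over the members the median distance from a difference to the end of its interval was 0.33 log2 without the block and 0.18 log2 with it. The interval lay inside a 2-fold change in both directions in 23 of the 24 cases, which compares with 95.4% over the whole array. It lay inside a 1.5-fold change in 17 of the 24, compared with 79.5% over the array. Blocking on the replicate number, it lay inside a 1.5-fold change in all 24, compared with 99.9%, and the smallest p was 0.16 before adjustment. The difference was positive in all 3 replicates for 3 member probe sets (11.8% of all probe sets) and negative in all 3 for 1 (5.83% of all), which is near the share of all probe sets in each case.

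Other genes of amino acid transport did not pass either. Of 39 further transporter genes listed, 27 had a probe set with a single symbol, and limma called none of them in either direction (0 higher, 0 lower). Their median difference was -0.01 log2, and they lay between -0.20 log2 for SLC3A1 and 0.16 log2 for SLC38A6. SLC3A1, at percentile 25.9 of all arrays, was lower in each replicate, by -0.20, -0.06 and -0.35 log2 (interval -1.11 to 0.70). Blocking on the replicate number, its interval was -0.39 to -0.01 log2 (unadjusted p = 0.039 from limma), and it did not pass after adjustment. SLC7A11 (xCT), which forms the cystine and glutamate exchanger with SLC3A2, was at 8.11, 7.79 and 8.47 log2 in Bf 140 nM, against 7.90, 7.79 and 8.72 in DMSO 0.6%. Its difference was -0.01 log2, with an interval of -0.72 to 0.69 log2. Blocking on the replicate number, that interval was -0.22 to 0.20 log2. Without the block, the smallest p values were those of SLC38A6 (0.16 log2, -0.13 to 0.46) and SLC43A3 (-0.11 log2, -0.37 to 0.16), a relative of SLC43A1 that carries nucleobases. Next came SLC1A2 (-0.08 log2, -0.32 to 0.15), a glutamate transporter of astrocytes, and SLC38A4 (-0.06 log2, -0.26 to 0.15). Of the 27 genes, each also at its brightest probe set, 7 lay above the median level of all probe sets, against 9 of the 10 members. Genes with several probe sets are favoured in such a count.

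Of 14 regulators and companion targets of these genes in amino acid shortage and growth, 12 were measured and 0 passed, with a median of -0.01 log2. Without the block, the smallest p values belonged to DDIT3 (CHOP), a transcription factor of the stress response, and CHAC1, which breaks down glutathione. DDIT3 was at 0.14 log2 (-0.12 to 0.40) and CHAC1 at 0.14 log2 (-0.21 to 0.48). The reference genes of the study's qRT-PCR differed by 0.09 log2 for ACTB and 0.03 log2 for GAPDH.

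As for probe sets of the whole array, the transporter levels varied far more between the replicate numbers than between the treatments. For a member probe set the median share of the sum of squares over the 6 arrays was 82.1% between replicate numbers, 1.03% between treatments and 6.74% in the remainder, against 76.5%, 2.61% and 14.9% over all probe sets. With the treatment in the model, 12 of the 24 probe sets differed among replicates 1, 2 and 3 at an adjusted p under 0.10 in limma's F test, where 44.6% of all probe sets did. Of the 24 probe sets, 10 passed with their lowest mean in replicate 3 (41.7%, against 25.8% of all probe sets). Another 2 passed with their highest mean there (8.33%, against 16.2% of all). Replicate 3 holds an array of each treatment. Its arrays correlated at 0.961 to 0.977 with the other 4, which correlated at 0.993 or more among themselves. Probe sets at both ends of the actin mRNA gave a 3′ minus 5′ gap of 1.49 log2 for Bf 140 nM and 1.90 for DMSO 0.6% in replicate 3, against 0.10 to 0.50 on the other arrays. For GAPDH the gap was 1.03 log2 for Bf 140 nM and 1.15 for DMSO 0.6%, against 0.20 to 0.25. The part of this end bias in the transporter values was not tested. Without both replicate 3 arrays, a choice made after seeing the data, 2 of the 24 probe sets differed between replicates 1 and 2 (12.5% of all), and none differed between Bf 140 nM and DMSO 0.6%.

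SLC1A5 varied most clearly among the exchangers, with means of 9.90, 9.85 and 8.94 log2 in replicates 1, 2 and 3 (adjusted p = 3.6e-05 from limma). SLC3A2 had means of 10.01, 9.79 and 9.34 log2 (adjusted p = 0.00061), while its partner SLC7A5 had 10.18, 10.21 and 10.41 (adjusted p = 0.23). The heavy chain was lowest in replicate 3, where the mean of SLC7A5 was highest without passing the test. SLC3A2 and SLC7A5 have 1 probe set each, and whether other probe sets would give this contrast was not tested. SLC7A11, another light chain, had means of 8.01, 7.79 and 8.60 log2 (adjusted p = 0.00044), highest in replicate 3. The light chains did not share this order, since 203579_s_at and 203578_s_at of SLC7A6 were lowest in replicate 3, at 7.66 and 7.23 log2, and its brightest probe set was lowest in replicate 2. SLC38A2 had means of 11.90, 11.92 and 11.39 log2 on its brightest probe set (adjusted p = 0.0015), and its other probe set ran in parallel at 11.75, 11.83 and 11.34. SLC38A1 went another way, with means of 11.12, 10.70 and 11.18 log2 (adjusted p = 0.044), lowest in replicate 2. SLC38A1 and the brightest probe set of SLC7A6, at 9.66 and 9.35 log2 in replicates 1 and 2, were the 2 that differed between these 2 replicates alone.

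Probe sets of the same gene did not always vary together. SLC7A1 on 212295_s_at had means of 11.72, 11.80 and 12.43 log2 in replicates 1, 2 and 3 (adjusted p = 0.00031), highest in replicate 3. On 206566_at it had 7.39, 7.40 and 6.35 log2 (adjusted p = 1.4e-05), lowest in replicate 3, and 212292_at was also lowest there, with 8.35, 8.34 and 7.65 log2. The value of 212295_s_at minus that of 206566_at on the same array was 4.46, 4.55 and 6.01 in the Bf 140 nM replicates 1 to 3 (log2), and 4.20, 4.25 and 6.16 in those of DMSO 0.6%. This gap was widest on both replicate 3 arrays, and the groups overlapped. In SLC7A6, 203579_s_at had means of 8.32, 8.30 and 7.66 log2 (adjusted p = 0.00066), where the brightest probe set of the gene had 9.66, 9.35 and 9.54 (adjusted p = 0.11). In SLC1A4, 209611_s_at had 7.81, 7.74 and 7.26 log2 (adjusted p = 0.0031), while the other 3 probe sets did not pass. A statement on SLC7A1 among these cultures therefore turns with the probe set chosen.

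**Figure D3:**
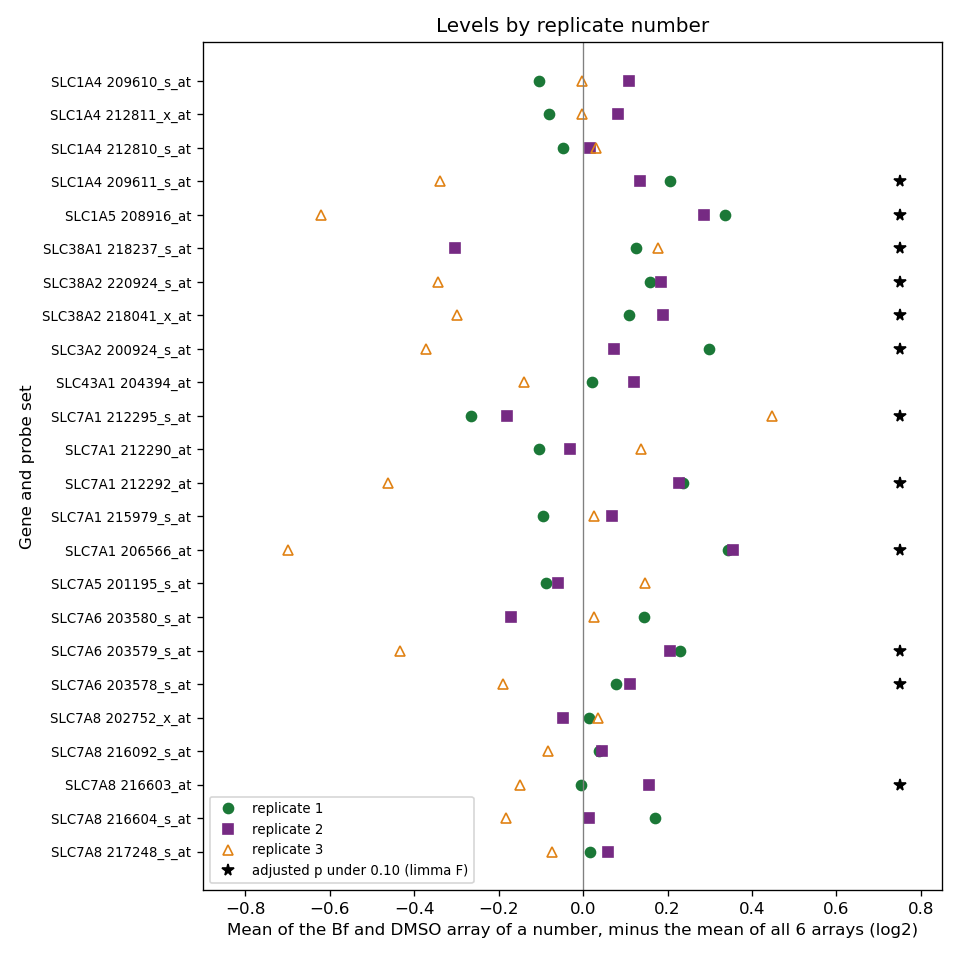
Mean of the Bf 140 nM and the DMSO 0.6% array of each replicate number minus the mean of all 6 arrays (log2, horizontal axis) for the 24 transporter probe sets (vertical axis). Circles, squares and triangles are replicates 1, 2 and 3, and stars mark the 12 probe sets with an adjusted p under 0.10 in limma's F test. Replicate 3 lies lowest for SLC1A5, SLC3A2 and SLC38A2, and on opposite sides for SLC7A1 212295_s_at and 206566_at.

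The label of the cells was checked against marker genes. Of 8 neuroblastoma markers measured, 6 lay above the median level, with GATA3, STMN2, DBH, PHOX2A, CHGA and CHGB between percentiles 94.2 and 98.7. HAND2 stood at 49.6 and TH, the tyrosine hydroxylase of catecholamine synthesis, at 13.9. Of 9 markers of leukocytes, endothelium, fibroblasts, liver and epithelium, 7 lay below the median, and COL3A1 and COL1A1, collagens of fibroblasts, stood at 87.3 and 62.6. COL3A1 had means of 11.18, 10.60 and 9.84 log2 in replicates 1, 2 and 3, lowest in replicate 3. Of all probe sets, 25.8% passed the F test with their lowest mean there, as did 10 of the 24 transporter probe sets. A part of COL3A1 in the transporter values was not tested.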

How the data were processed

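Total RNA from 3 cultures at Bf 140 nM and 3 in DMSO 0.6% was labelled and hybridized, 1 array each. The authors computed cell intensities in GCOS, applied the justvsn function in R 2.5.0 and deposited log2 values with 1 column per array. The summary of probes into probe sets, and the set of arrays normalized together, are not stated in the sources used here. The number of arrays limits the precision. The 62 platform controls were left out and no filter was set. Gene names came from the platform annotation (19064 probe sets with 1 symbol, 1043 with several, 2108 with none).

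The groups were compared with limma 3.58.1 in R 4.3.3 (lmFit, eBayes) across all 22215 probe sets with Benjamini-Hochberg adjustment at 0.10, a level taken from the study. Differences among replicate numbers were tested with limma's F test with treatment in the model. Scripts were tested on simulated data. The replicate numbers come from the sample titles. After the group means were subtracted, arrays with the same number correlated at 0.725, 0.783 and 0.880. Such deviations cancel within a group, so the distance of replicate 3 also raises the values of replicates 1 and 2. Without the subtraction, arrays of replicates 1, 2 and 3 correlated at 0.9964, 0.9979 and 0.9954 within a number. Across numbers the highest were 0.9948, 0.9948 and 0.9774. The numbers were taken to pair the samples, and a block was an alternative because the methods name no pairing. The named genes were all members, SLC7A11, the 4 other transporters and 2 regulators with the smallest p, and the qRT-PCR reference genes. The members and lists were chosen with earlier results of these data known. Other alternatives were quantile normalization, equal array medians, a filter at the median level, trend and robust eBayes, array weights, leaving out arrays, SAM, thresholds of 0.05 and 0.2, and averaging a gene over its probe sets. The removal of both replicate 3 arrays was chosen after seeing the data. The estimate of array weights stopped before its convergence tolerance.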

Additional observations from a re-analysis of the deposited data

How the results depend on the processing

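The count of 0 transporter probe sets differing between Bf 140 nM and DMSO 0.6% was the same under every alternative run, namely the replicate block, both normalizations, the filter, the trend and robust setting, array weights, each array left out, both thresholds, SAM and the removal of both replicate 3 arrays. The count over all probe sets was 0 in each of these too, also with the replicate block, and so were the counts of other transporters and regulators where they were run. The lowest adjusted p of a member gene over 139 such values was 0.97. The median difference of the members, -0.00 log2, was -0.059 with array weights and lay between -0.091 and 0.043 log2 when 1 array was left out. Signs of single genes turned in several settings, all within error. SLC1A5 was at -0.065 log2 with array weights and -0.023 without both replicate 3 arrays. SLC38A2 was at -0.0054 with equal array medians, -0.060 with array weights and -0.0069 as the mean of its probe sets. SLC7A1 was at -0.011 as the mean of its probe sets, and SLC7A8 at -0.015 with quantile normalization and -0.017 with equal array medians. Leaving out 1 array gave -0.29 to 0.33 log2 for SLC1A5, -0.032 to 0.35 for SLC38A1, -0.15 to 0.19 for SLC38A2, -0.24 to 0.13 for SLC3A2, -0.17 to 0.27 for SLC7A1, -0.18 to 0.067 for SLC7A6 and -0.021 to 0.035 for SLC7A8. These fits held no block, so the replicate number of the array left out remained in 1 group only. For SLC1A5, SLC38A2, SLC3A2 and SLC7A1 both ends came from leaving out a replicate 3 array. Their ranges therefore include the distance of replicate 3 from the other replicates. SLC43A1 fell under the filter at the median level and has no value there. The count of 12 members differing by replicate number (9897 of all probe sets) was 17 with equal array medians (11007 of all). It was 8 with the filter at the median level, which tests fewer probe sets (7002 of all). At thresholds of 0.05 and 0.2 it was 10 and 16 (8271 and 11992 of all). These counts were 2 member probe sets and 2783 of all without both replicate 3 arrays, and between 9 and 15 members and between 7392 and 11061 of all when 1 array was left out.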
